A study of Mus musculus with 21 samples.

Results

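Toll-like receptors are membrane proteins that recognise molecules of microbes, and a set of 10 genes of this system was followed through the myeloid progenitors of mouse bone marrow. The set held 7 receptors (Tlr1, Tlr2, Tlr4, Tlr6, Tlr7, Tlr9 and Tlr13), the receptor-like Cd180, the co-receptor Ly96 and the adaptor Myd88. The genes were taken by name from a table of read counts, with Ensembl identifiers matched to symbols, and were 10 of its 47643 genes. All 10 passed the filter on low counts, as did 14801 genes in total.

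RNA had been sequenced from 7 sorted populations of C57/B6 bone marrow with 3 libraries each, 21 in all. Granulocyte/monocyte progenitors (GMPs) were gated as cells with C-KIT, CD34 and CD16/32 but without lineage markers and SCA-1, common myeloid progenitors (CMPs) in the same way but without CD16/32, and no population had been treated. GMPs were divided by the surface level of CD62L, an adhesion molecule, into CD62L-neg, CD62L-int and CD62L-high GMPs and CMPs into CD62L-high and CD62L-neg CMPs, beside undivided bulk GMPs and bulk CMPs. The sample labels call the CD62L-int GMPs "CD62L-low GMP" and the CD62L-neg CMPs "CD62L-low CMP". The GMP fractions were tails of the CD62L distribution, and the bulk populations contain the cells that the fractions were cut from. The study trisected CMPs by CD62L, so the GMP fractions were narrower tails than the CMP fractions. GMP and CMP fractions are compared here by name, and their CD62L levels need not be equal. The sources do not say whether the 3 libraries of a population came from separate mice, so p-values measure the spread between libraries, which may be technical. In bulk RNA, fewer cells with a transcript and less transcript per cell cannot be told apart.

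Each receptor reads its ligand with an extracellular fan of leucine-rich repeats and signals through an intracellular domain that recruits adaptors. TLR2 pairs with TLR1 or TLR6 to recognise bacterial lipopeptides, and TLR4 with MD-2 (encoded by Ly96) recognises lipopolysaccharide. TLR7, TLR9 and TLR13 sit in endosomes and read single-stranded RNA, unmethylated CpG DNA and bacterial ribosomal RNA. CD180 is a TLR4-like surface protein without a signalling domain that is carried by its partner MD-1 (encoded by Ly86). MYD88 is the adaptor that most of these receptors share, and monocytes, macrophages, dendritic cells and B cells are the cells best known for the system.

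The 10 genes are given by their positions in GRCm38 with GENCODE M21 gene models. The neighbours Tlr1 (chr5:64924679-64933563) and Tlr6 (chr5:64952031-64960097) lie on the minus strand, as do Tlr2 (chr3:83836272-83841767), Tlr7 (chrX:167304929-167330558) and Myd88 (chr9:119335934-119341411). Tlr4 (chr4:66827584-66930284), Tlr9 (chr9:106222598-106226883), Tlr13 (chrX:106143204-106160493), Cd180 (chr13:102693558-102739629) and Ly96 (chr1:16688051-16709611) lie on the plus strand. Counts were given per gene, without division into exons.

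Libraries held 6145834 to 15263573 counts, and levels are given in CPM, counts scaled to a common library size. Bulk CMP library 2 stood apart: 61.0% of its counts fell on 3 RNA gene models (Gm23935, Gm26917, Gm42418), as did 41.1% in CD62L-high GMP library 1 and 22.4% to 31.7% in the other 19 libraries. CD62L-neg CMP library 1 also stood apart, with 137.9 CPM of Cd34, against 65.0 and 46.8 CPM in the other CD62L-neg CMPs. Fcgr3, which encodes the CD16 part of the gate, averaged 139 to 169 CPM in the GMP populations and 7.88 to 14.99 CPM in the CMP populations. Fcgr3 thus checks the GMP and CMP labels.

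Per kilobase of exon, Myd88 was the most abundant of the 10 genes in all 7 populations, with means of 8.99 to 13.7 CPM per kb. Tlr2 was second in each of the 4 GMP populations and in CD62L-high CMPs, with 2.32 to 8.33 CPM per kb. Cd180 was second in CD62L-neg CMPs at 4.38 CPM per kb and in bulk CMPs at 3.82 CPM per kb. The rarest were Tlr13 in all 3 CMP populations (0 to 0.286 CPM per kb), Tlr7 in CD62L-int, CD62L-high and bulk GMPs (0.102 to 0.269 CPM per kb) and Tlr9 in CD62L-neg GMPs (0.0879 CPM per kb). Few reads therefore stand behind Tlr13, Tlr7 and Ly96, which had 268, 372 and 149 counts over all 21 libraries.

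**Figure D1:**
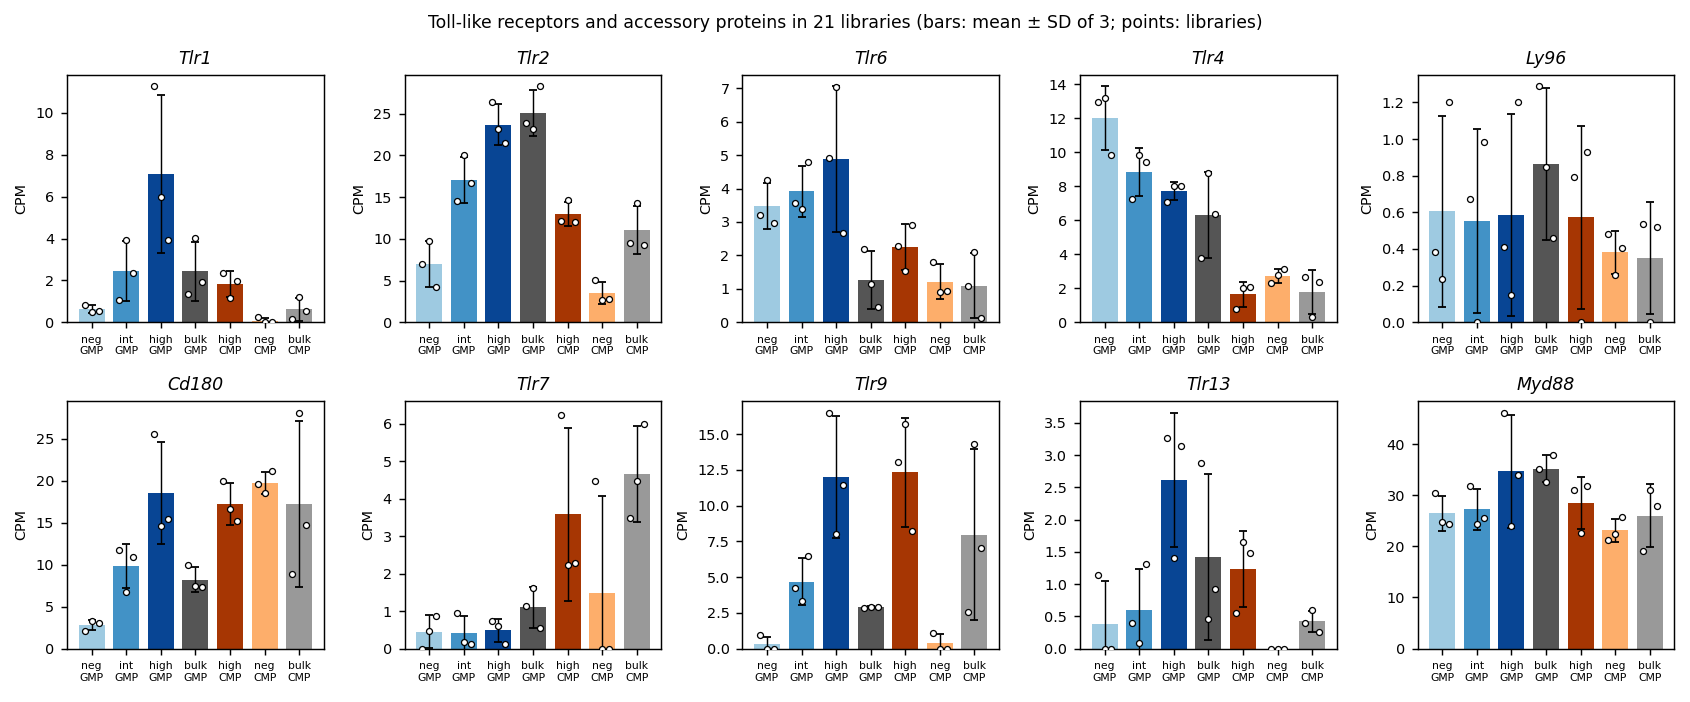
Level of each of the 10 genes in CPM (vertical axis, linear, with its own range per gene) in the 7 populations, where bars are means, error bars are SDs and points are the 3 libraries. Tlr2 and Tlr9 step up from CD62L-neg to CD62L-high GMPs, Tlr4 is higher in each GMP population than in each CMP population, and Cd180 is lowest in CD62L-neg GMPs (2.83 CPM).

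Sequences just before the gene start are shown for Tlr1, Tlr9 and Tlr13, the 3 of the 10 genes in which a PU-box was found, and for Cd180 as a gene without one. All 4 were also called higher in a CD62L-high population. The PU-box, the core of the site read by the myeloid factor PU.1, was searched as GAGGAA on both strands (TTCCTC on the other) in 250 bases before the RefSeq start. RefSeq windows (GRCm38.p6) matched 7 of the 10 genes by symbol, namely Tlr1, Tlr2, Tlr6, Tlr9, Tlr13, Cd180 and Myd88. Bases that the GENCODE M21 annotation places within the gene are not printed and were left out of the count of matches. Capitals mark the PU-box.
Tlr1, chr5:64933564-64933808, minus strand: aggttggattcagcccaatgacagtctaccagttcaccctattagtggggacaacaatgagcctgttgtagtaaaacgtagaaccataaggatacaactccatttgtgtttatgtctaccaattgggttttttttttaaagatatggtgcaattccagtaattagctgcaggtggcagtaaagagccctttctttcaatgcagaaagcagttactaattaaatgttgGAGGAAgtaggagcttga
Tlr9, chr9:106222348-106222597, plus strand: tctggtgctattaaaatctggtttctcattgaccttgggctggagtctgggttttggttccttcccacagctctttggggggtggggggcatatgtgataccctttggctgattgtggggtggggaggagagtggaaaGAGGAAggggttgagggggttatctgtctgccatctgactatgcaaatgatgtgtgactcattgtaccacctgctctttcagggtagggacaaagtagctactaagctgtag
Tlr13, chrX:106143025-106143203, plus strand: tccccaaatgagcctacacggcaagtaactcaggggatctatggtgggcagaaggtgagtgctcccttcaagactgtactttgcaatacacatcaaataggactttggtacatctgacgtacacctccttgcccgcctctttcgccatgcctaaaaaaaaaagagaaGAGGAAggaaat
Cd180, chr13:102693308-102693557, plus strand: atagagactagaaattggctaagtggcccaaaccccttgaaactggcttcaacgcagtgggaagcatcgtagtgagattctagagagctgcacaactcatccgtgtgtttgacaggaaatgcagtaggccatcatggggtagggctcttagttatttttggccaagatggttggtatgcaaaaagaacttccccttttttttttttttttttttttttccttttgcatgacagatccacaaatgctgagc

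The motif began 23 bases before the RefSeq start of Tlr1, 112 bases before that of Tlr9 and 83 bases before that of Tlr13, in each case in the direction of the gene. It was found in the bases counted for 3 of the 7 genes. Over all 32851 RefSeq windows, taken at the full 250 bases, 23.3% held it. These shares cannot be compared directly, because several of the 7 genes had fewer bases counted. The bases counted were 250 for Tlr9 and Cd180, 245 for Tlr1, 201 for Tlr6, 179 for Tlr13, 91 for Tlr2 and 0 for Myd88. These letters were not in the bases counted for Tlr2, Tlr6 and Cd180, and Myd88 had none to search. A match is a description of the sequence and not a shown site.

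CD62L-high progenitors had more RNA of Tlr1, Tlr2 and Tlr9 than CD62L-neg progenitors, in GMPs and in CMPs, and Tlr6, the other lipopeptide receptor, was called in neither. Between CD62L-high and CD62L-neg GMPs, 4 of the 10 genes were called higher (Tlr1, Tlr2, Tlr9 and Cd180) and 0 lower, where 4.49% of all genes tested were called higher and 6.01% lower. Calls required a change of more than 2-fold and a Benjamini-Hochberg adjusted p below 0.05 in edgeR's quasi-likelihood test. Between CD62L-high and CD62L-neg CMPs, again 4 of 10 were called higher (Tlr1, Tlr2, Tlr9 and Tlr13) and 0 lower, where 5.62% of all genes were called higher and 4.84% lower. The median log2 fold change of the 10 genes was 1.12 in GMPs and 1.05 in CMPs, beside medians over all genes of -0.04 and 0.01. In GMPs 5 of the 10 genes were higher in each CD62L-high library than in each CD62L-neg library and 1 was lower, as 15.2% and 17% of all genes were. In CMPs 4 were higher and 1 was lower in this way, as 21.1% and 17.8% of all genes were. Without CD62L-neg CMP library 1 the count in CMPs was also 4, with Tlr7 in place of Tlr13, and without CD62L-neg GMP library 1 the count in GMPs was 5, with Tlr13 added. CD62L-high GMP library 1, rich in the RNA gene models, held the highest value of its group for each of the 4 genes called in GMPs. Without it their log2 fold changes were 2.97 (Tlr1), 1.68 (Tlr2), 4.92 (Tlr9) and 2.41 (Cd180), and each was still called.

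Tlr2, the shared subunit of the lipopeptide receptors, was measured at 26.4, 23.2 and 21.5 CPM in CD62L-high GMPs, against 6.96, 9.74 and 4.25 CPM in CD62L-neg GMPs. In CMPs it was at 12.2, 14.7 and 12.1 CPM in CD62L-high cells, against 5.09, 2.68 and 2.84 CPM in CD62L-neg cells. Neither pair of groups overlapped. The log2 fold change was 1.76 ± 0.28 in GMPs (SE, edgeR adjusted p = 5.301e-05) and 1.87 ± 0.30 in CMPs (adjusted p = 5.528e-05). CD62L-int GMPs lay between the GMP extremes, at 14.5, 20.0 and 16.7 CPM, and were higher than CD62L-neg GMPs with a log2 fold change of 1.29 ± 0.28 (adjusted p = 0.003638).

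Tlr1, which pairs with TLR2, was far less abundant. CD62L-high GMPs had 11.3, 6.01 and 3.95 CPM, against 0.841, 0.472 and 0.561 CPM in CD62L-neg GMPs. CD62L-high CMPs had 2.37, 1.14 and 1.98 CPM, against 0.242 CPM in CD62L-neg CMP library 1 and 0 CPM in libraries 2 and 3. The groups did not overlap in either case, and the log2 fold change in GMPs was 3.48 ± 0.74 (adjusted p = 0.001551). In CMPs the CD62L-neg level rested on 2 counts, both in library 1, so the size is given as a ratio of pooled counts per depth, 21.1 with a 95% exact interval of 5.65 to 177 that covers counting error only (edgeR adjusted p = 0.003049, and 0.002375 without that library). CD62L-int GMPs had 1.07, 3.92 and 2.36 CPM, all above the CD62L-neg GMPs, but the difference did not pass the test (log2 fold change 1.95 ± 0.72, adjusted p = 0.1305).

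Tlr6, the other partner of TLR2, did not show this step. CD62L-high GMPs had 4.90, 7.05 and 2.68 CPM, against 3.21, 4.24 and 2.97 CPM in CD62L-neg GMPs, and CD62L-high CMPs had 2.29, 1.52 and 2.91 CPM, against 1.82, 0.894 and 0.946 CPM in CD62L-neg CMPs. The libraries overlapped in both, and the log2 fold changes were 0.49 ± 0.60 in GMPs (adjusted p = 0.6635) and 0.87 ± 0.65 in CMPs (adjusted p = 0.4491). Pooled over libraries, there were 1.43 Tlr1 counts per Tlr6 count in CD62L-high GMPs, against 0.181 in CD62L-neg GMPs, and 0.800 in CD62L-high CMPs, against 0.0690 in CD62L-neg CMPs. Tlr1 and Tlr6 are near copies in part: 454 of the 3332 stretches of 50 bases in Tlr1 transcripts (13.6%) also occur in Tlr6. Reads from those stretches could have been lost or assigned to either gene, so the levels of this pair are uncertain. No 50-base stretch was shared between any other pair of the 10 genes. Outside the set, Tlr1 shared stretches with 157 genes, at most 36 with any 1 gene, and Tlr4 and Tlr6 with 1 gene each. Reads from these could also have been lost.

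Tlr9, the receptor of unmethylated CpG DNA, had the largest change among those of the 10 genes with counts in each group. CD62L-high GMPs had 16.5, 8.01 and 11.45 CPM, against 0.917 CPM in CD62L-neg GMP library 1 and 0 CPM in libraries 2 and 3. CD62L-high CMPs had 13.04, 15.8 and 8.22 CPM, against 1.09 CPM in CD62L-neg CMP library 1 and 0 CPM in libraries 2 and 3. The CD62L-neg libraries together held 12 counts in GMPs and 9 in CMPs, and the groups did not overlap. The log2 fold change was 5.22 ± 0.88 in GMPs (adjusted p = 0.0001255) and 4.99 ± 0.91 in CMPs (adjusted p = 0.0002626). Since all CD62L-neg counts came from 1 library in each case, the size rests on those libraries: without them the CD62L-neg cells were at 0 counts and the call held, with fitted log2 fold changes of 10.11 in GMPs and 10.21 in CMPs that are no bounds. CD62L-neg CMP library 1 is the library with the higher Cd34, and its part in these levels was not tested.

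In CD62L-int GMPs Tlr9 was at 4.23, 3.31 and 6.498 CPM, above each CD62L-neg GMP library (log2 fold change 3.87 ± 0.87, adjusted p = 0.005903, and 8.79 without CD62L-neg GMP library 1) and below each CD62L-high GMP library. Between CD62L-high and CD62L-int GMPs the log2 fold change of 1.35 ± 0.67 did not pass (adjusted p = 0.4061). Bulk GMPs had 2.80, 2.93 and 2.90 CPM of Tlr9, a spread of 0.0684 CPM (SD, n = 3). Bulk CMPs had 2.55, 14.4 and 7.05 CPM, the highest in library 2, in which the 3 RNA gene models were abundant.

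Tlr13, the receptor of bacterial ribosomal RNA, was at 3.27, 1.41 and 3.15 CPM in CD62L-high GMPs, against 1.15, 0 and 0 CPM in CD62L-neg GMPs. In CMPs it was at 0.553, 1.65 and 1.48 CPM in CD62L-high cells, against 0 counts in all 3 CD62L-neg libraries. The CMP difference was called (adjusted p = 0.02182) and, against a floor of 3 counts over the group, amounts to at least 10.01-fold higher. That call was lost without any one of the CD62L-neg CMP libraries, at adjusted p of 0.06867, 0.07093 and 0.07137. In a fit of the compared populations alone 3 genes were called higher in CD62L-high CMPs, and Tlr13 was not among them. In GMPs the log2 fold change of 2.73 ± 1.19 did not pass (adjusted p = 0.1319), and it passed without CD62L-neg GMP library 1, which held all 15 CD62L-neg counts (7.91 ± 1.81, adjusted p = 0.005079).

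Tlr7, the receptor of single-stranded RNA, was measured at 0.735, 0.593 and 0.134 CPM in CD62L-high GMPs, against 0, 0.472 and 0.882 CPM in CD62L-neg GMPs, and the libraries overlapped. CD62L-high CMPs had 6.25, 2.22 and 2.29 CPM, against 4.48, 0 and 0 CPM in CD62L-neg CMPs. The CMP difference did not pass the test (log2 fold change 1.24 ± 1.14, adjusted p = 0.5569). It did without CD62L-neg CMP library 1, which held all 37 counts of its group (8.42 ± 2.01, adjusted p = 0.005334, against a group at 0 counts). The Tlr7 call therefore turns on the same library that alone carried the Tlr1 and Tlr9 counts of the CD62L-neg CMPs. Each bulk GMP library (1.14, 1.62 and 0.535 CPM) was below each bulk CMP library (3.48, 4.48 and 6.01 CPM), and each CD62L-high GMP library below each CD62L-high CMP library. Neither difference passed, with log2 fold changes of -2.08 ± 1.16 in bulk cells (adjusted p = 0.2196) and -2.86 ± 1.21 in CD62L-high cells (adjusted p = 0.1422), although the second passed without the filter on low counts (adjusted p = 0.01818) and in a fit of those populations alone (0.03383).

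**Figure D2:**
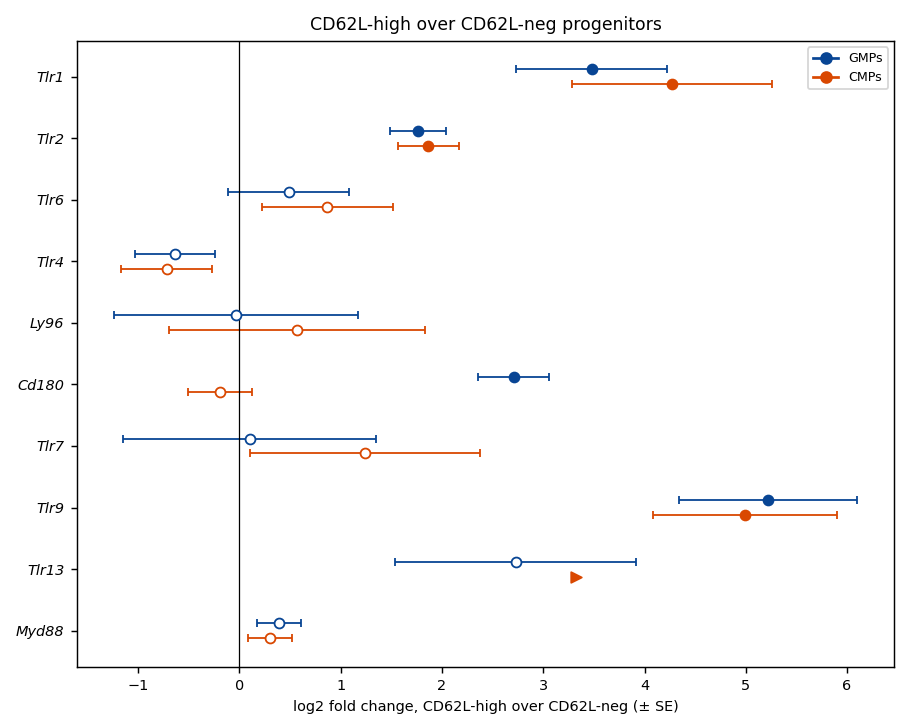
Log2 fold change of CD62L-high over CD62L-neg progenitors (horizontal axis, bars are SEs) for the 10 genes in GMPs (blue) and CMPs (orange), with filled points for called genes. The triangle for Tlr13 in CMPs stands at the bound of 10.01-fold, because CD62L-neg CMPs had 0 counts. Tlr1, Tlr2 and Tlr9 lie to the right in both, and Cd180 only in GMPs (2.71 against -0.20 in CMPs).

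The pattern of Cd180, the TLR4-like surface protein, was different in GMPs and CMPs. CD62L-high GMPs had 25.6, 14.6 and 15.5 CPM, against 2.14, 3.30 and 3.05 CPM in CD62L-neg GMPs, with no overlap. CD62L-high CMPs had 20.0, 16.6 and 15.2 CPM, against 19.6, 18.5 and 21.1 CPM in CD62L-neg CMPs, with overlap. The log2 fold change was 2.71 ± 0.35 in GMPs (adjusted p = 3.754e-06) and -0.20 ± 0.32 in CMPs (adjusted p = 0.7732). The GMP fractions were narrower tails of CD62L than the CMP fractions, so the 2 effects may span unlike ranges of CD62L. The difference between these 2 effects was itself tested and was 2.90 ± 0.47 (edgeR adjusted p = 0.0002149). Cd180 was the only one of the 10 genes called in that test, in which 2.3% of all genes were called with a higher effect in GMPs and 5.05% with a lower one.

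Within GMPs, Cd180 took 3 levels: 2.83 ± 0.610 CPM in CD62L-neg, 9.81 ± 2.65 CPM in CD62L-int and 18.6 ± 6.09 CPM in CD62L-high cells (SD, n = 3 each). CD62L-int GMPs were above CD62L-neg GMPs (log2 fold change 1.80 ± 0.35, adjusted p = 0.001321). CD62L-high GMPs were above CD62L-int GMPs in every library, but the log2 fold change of 0.91 ± 0.32 did not pass (adjusted p = 0.1694). It was 0.61 without CD62L-high GMP library 1. The low level was that of CD62L-neg GMPs, since the other populations averaged 8.22 to 19.7 CPM. The gene overlaps Mast4 on the opposite strand, and whether strand was used in counting is not given in the sources used here.

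Ly86, which encodes the MD-1 partner of CD180, followed CD62L in both cell types. It was at 108, 73.7 and 82.8 CPM in CD62L-high GMPs, against 2.22, 2.75 and 2.97 CPM in CD62L-neg GMPs (log2 fold change 5.06 ± 0.31, adjusted p = 2.358e-11). CD62L-high CMPs had 71.6, 46.2 and 63.7 CPM, against 1.57, 1.28 and 0 CPM in CD62L-neg CMPs (5.94 ± 0.36, adjusted p = 3.013e-11). CD62L-neg CMPs thus had the highest mean of Cd180 among the 7 populations and almost no Ly86, with 0.0497 Ly86 counts per Cd180 count, against 0.935 in CD62L-neg GMPs and 1.62 to 6.86 in the other 5 populations.

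**Figure D3:**
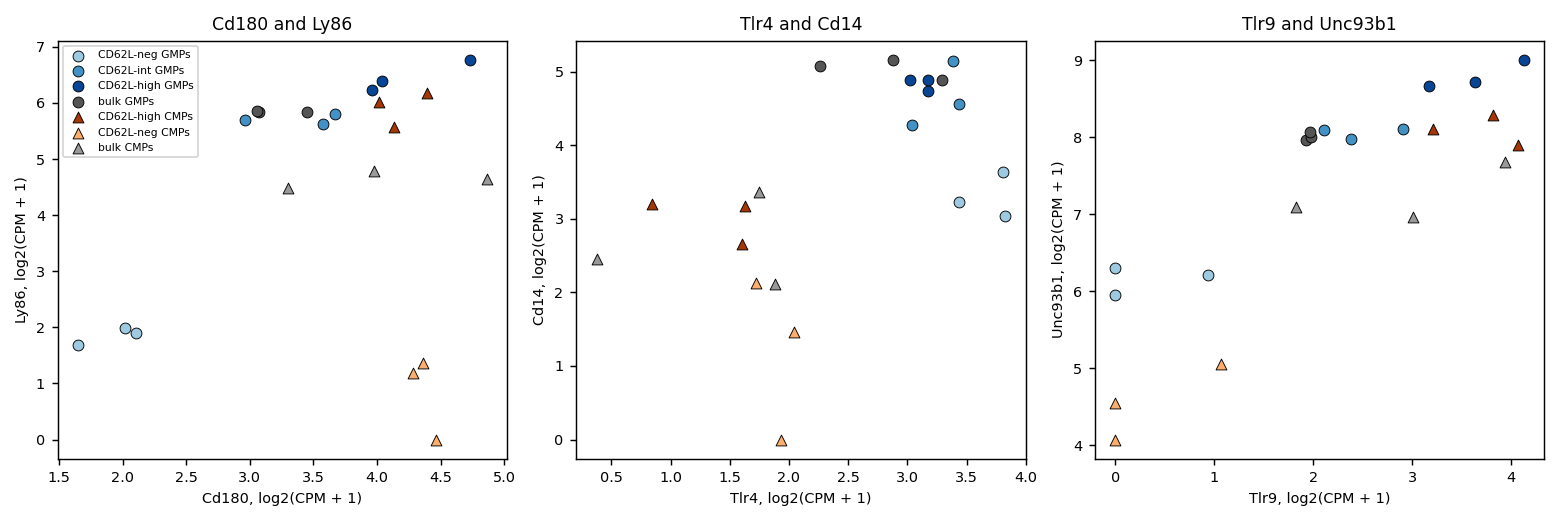
Level of a receptor (horizontal axis) and of a protein that serves it (vertical axis) in each of the 21 libraries, both as log2(CPM + 1), with circles for GMPs and triangles for CMPs. CD62L-neg CMPs stand alone at high Cd180 (18.5 to 21.1 CPM) and low Ly86 (0 to 1.57 CPM), and Tlr9 and Unc93b1 are both lowest in the CD62L-neg populations.

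Tlr4, the lipopolysaccharide receptor, was higher in GMPs than in CMPs in all 3 pairs of the same name. CD62L-neg GMPs had 12.99, 13.2 and 9.86 CPM, against 2.30, 2.81 and 3.11 CPM in CD62L-neg CMPs. CD62L-high GMPs had 7.11, 8.01 and 8.04 CPM, against 0.791, 2.03 and 2.10 CPM in CD62L-high CMPs, and bulk GMPs had 3.79, 8.80 and 6.34 CPM, against 2.68, 0.299 and 2.35 CPM in bulk CMPs. None of the 3 pairs overlapped. The log2 fold change of GMPs over CMPs was 2.13 ± 0.43 in CD62L-neg cells (adjusted p = 0.0007632), 2.21 ± 0.43 in CD62L-high cells (adjusted p = 0.0009457) and 1.69 ± 0.45 in bulk cells (adjusted p = 0.009883). The bulk call was lost without bulk GMP library 2 (1.37 ± 0.49, adjusted p = 0.06636) and in a fit of the bulk populations alone (1.68 ± 0.64, adjusted p = 0.132).

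Within a cell type, each CD62L-high library was below each CD62L-neg library for Tlr4, but neither difference passed: the log2 fold change was -0.64 ± 0.40 in GMPs (adjusted p = 0.3181) and -0.72 ± 0.45 in CMPs (adjusted p = 0.3404). By the same count of groups that do not overlap, 17% of all genes were lower in GMPs and 17.8% in CMPs. Tlr4 was thus the 1 gene of the 10 that was lower in every CD62L-high library of both cell types.

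Ly96, the co-receptor of TLR4, was near the limit of detection, with 0 to 1.29 CPM in the 21 libraries and population means of 0.353 to 0.865 CPM. All neighbouring populations in the order of its means overlapped, and it was called in none of the 8 comparisons. Differences in Ly96 were not detectable at this depth. Cd14, which passes lipopolysaccharide to TLR4 and MD-2, was higher in CD62L-high than CD62L-neg cells, with means of 27.6 and 9.01 CPM in GMPs and 7.20 and 1.72 CPM in CMPs. Its log2 fold change was 1.62 ± 0.42 in GMPs (adjusted p = 0.008971) and 2.05 ± 0.51 in CMPs (adjusted p = 0.006173). Pooled Cd14 counts per Tlr4 count were 3.57 in CD62L-high GMPs, against 0.750 in CD62L-neg GMPs, and 4.18 in CD62L-high CMPs, against 0.641 in CD62L-neg CMPs.

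Myd88, the shared adaptor, was present in each library at 19.2 to 46.2 CPM. CD62L-high GMPs had 46.2, 24.1 and 33.95 CPM, against 30.4, 24.8 and 24.4 CPM in CD62L-neg GMPs, and CD62L-high CMPs had 31.0, 22.6 and 31.9 CPM, against 21.3, 22.5 and 25.7 CPM in CD62L-neg CMPs. The libraries overlapped in both, with log2 fold changes of 0.39 ± 0.22 in GMPs (adjusted p = 0.2483) and 0.30 ± 0.22 in CMPs (adjusted p = 0.4402). The highest value was in CD62L-high GMP library 1, 1 of the 2 libraries rich in the RNA gene models. Myd88 overlaps Acaa1a on the other strand and Slc22a14 on its own, and reads in the overlaps may have been set aside.

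CD62L-int GMPs, which the study cut as a low tail and not as the middle of the GMPs, were compared with CD62L-neg and CD62L-high GMPs. Between CD62L-int and CD62L-neg GMPs 3 of the 10 genes were called higher (Tlr2, Tlr9 and Cd180) and 0 lower, where 1.84% of all genes were called higher and 2.48% lower. By libraries that do not overlap, 4 were higher and 1, Tlr4, was lower, as 12% and 12.9% of all genes were. Between CD62L-high and CD62L-int GMPs 0 of 10 were called, where 0.331% of all genes were called higher and 0.885% lower. In that second comparison 5 of the 10 genes were higher in each CD62L-high library than in each CD62L-int library (Tlr1, Tlr2, Tlr9, Tlr13 and Cd180), where 9.53% of all genes were, and 0 were lower, where 8.86% were. None of the 10 had an adjusted p below 0.1694 there with edgeR, 2 had an unadjusted p under 0.05, and DESeq2 also called 0.

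Between bulk GMPs and bulk CMPs 2 of the 10 genes were called higher (Tlr2 and Tlr4) and 1 lower (Cd180), where 4.19% of all genes were called higher and 7.3% lower. By libraries that do not overlap, 4 were higher (Tlr1, Tlr2, Tlr4 and Myd88) and 1, Tlr7, was lower, as 19% and 16.6% of all genes were. Tlr2 was at 23.9, 23.2 and 28.3 CPM in bulk GMPs, against 9.52, 14.4 and 9.27 CPM in bulk CMPs, without overlap (log2 fold change 1.21 ± 0.28, adjusted p = 0.003182). Cd180 was at 9.92, 7.41 and 7.34 CPM in bulk GMPs, against 8.84, 28.1 and 14.8 CPM in bulk CMPs, with overlap (-1.03 ± 0.33, adjusted p = 0.03011). Without bulk CMP library 2 the Cd180 difference was -0.52 ± 0.30 (adjusted p = 0.2815), and the call was also lost without bulk GMP library 2 (-0.96, adjusted p = 0.09812) or 3 (-0.95, adjusted p = 0.1003). It was lost as well in a fit of the bulk populations alone (-1.08, adjusted p = 0.1404) and with no filter on low counts, where the change was just under 2-fold (-0.9957, adjusted p = 0.01348). With no filter Tlr9 was the 1 gene called lower in bulk GMPs (-1.38 ± 0.46, adjusted p = 0.02261).

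Between fractions of the same name, CD62L-neg GMPs differed from CD62L-neg CMPs in 2 of the 10 genes, Tlr4 higher and Cd180 lower. Over all genes 6.49% were called higher and 6.11% lower. By libraries that do not overlap, 3 were higher (Tlr1, Tlr4 and Tlr6) and 1, Cd180, was lower, as 20.6% and 19.9% of all genes were. Cd180 was at 2.14, 3.30 and 3.05 CPM in CD62L-neg GMPs, against 19.6, 18.5 and 21.1 CPM in CD62L-neg CMPs (log2 fold change -2.80 ± 0.35, adjusted p = 2.12e-06). Between CD62L-high GMPs and CD62L-high CMPs Tlr4 alone was called, higher, where 2.53% of all genes were called higher and 5.11% lower. Tlr1 was also called higher there with DESeq2 (log2 fold change 1.94, adjusted p = 0.0207) and in an edgeR fit of those populations alone (1.92, adjusted p = 0.03043). By libraries that do not overlap, 3 were higher (Tlr1, Tlr2 and Tlr4) and 1, Tlr7, was lower, as 14.7% and 16.5% of all genes were. There Tlr9 had a log2 fold change of -0.04 ± 0.65 and Cd180 of 0.10 ± 0.31 (adjusted p = 0.9846 and 0.8933). Tlr2 passed the adjusted p in both comparisons but stayed under the fold change of 2, at 0.97 ± 0.30 in CD62L-neg cells (adjusted p = 0.02287) and 0.87 ± 0.27 in CD62L-high cells (adjusted p = 0.03287). In CD62L-neg cells it passed both without CD62L-neg CMP library 1 (1.32) and without CD62L-neg GMP library 3 (1.22).

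**Figure D4:**
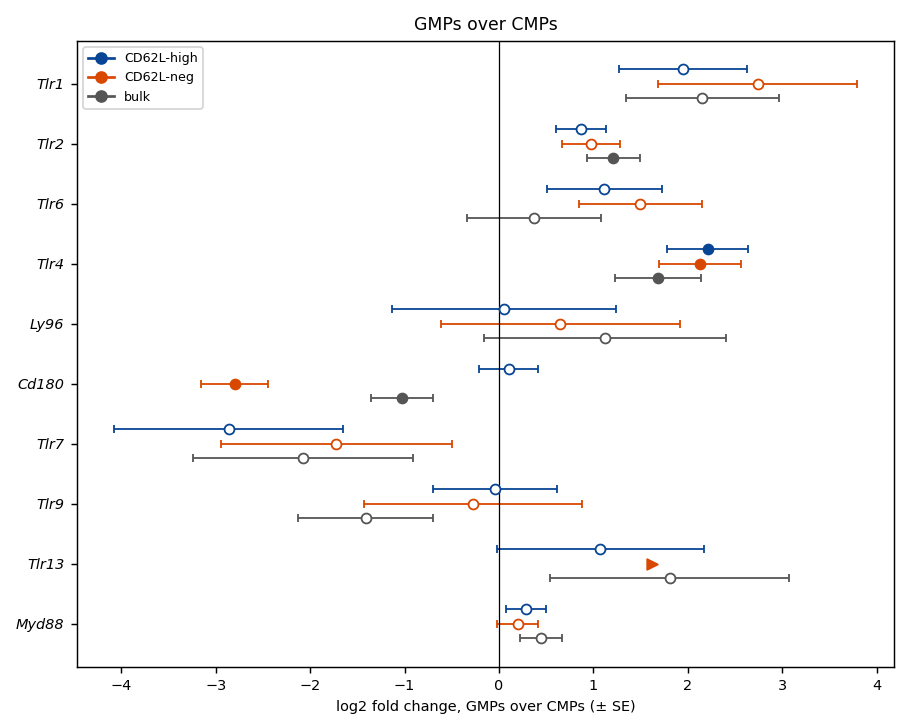
Log2 fold change of GMPs over CMPs (horizontal axis, bars are SEs) for the 10 genes in CD62L-high (blue), CD62L-neg (orange) and bulk cells (grey), with filled points for called genes. The triangle for Tlr13 in CD62L-neg cells stands at a bound of 3.07-fold that rests on 1 GMP library and was not called. Tlr4 is called in all 3 pairs (1.69 to 2.21; in bulk cells not in a fit of those populations alone), and Cd180 lies far to the left in CD62L-neg cells (-2.80).

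The order of levels over the 7 populations differed between the genes. Tlr1 was highest in CD62L-high GMPs (7.08 CPM) and Tlr2 in bulk GMPs (25.1 CPM) and CD62L-high GMPs (23.7 CPM), which overlapped. Tlr4 was highest in CD62L-neg GMPs (12.02 CPM), which did not overlap with the next, CD62L-int GMPs (8.85 CPM). Bulk GMPs had a lower mean than all 3 GMP fractions for Tlr4 (6.31 against 7.72 to 12.02 CPM) and Tlr6 (1.27 against 3.47 to 4.87 CPM). Their mean was above all 3 for Tlr2, Tlr7, Ly96 and Myd88, so a bulk level need not lie between those of the fractions. Tlr7 was highest in bulk CMPs (4.66 CPM), then CD62L-high CMPs (3.59 CPM), with overlap between all neighbours in its order. Tlr9 was highest in CD62L-high CMPs (12.3 CPM) and CD62L-high GMPs (11.98 CPM), which overlapped, and it dropped without overlap between CD62L-int GMPs (4.68 CPM), bulk GMPs (2.88 CPM) and the 2 CD62L-neg populations (0.363 and 0.306 CPM).

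Genes with the most similar pattern were sought over population means of log2(CPM + 1), with n = 7 populations and 9967 protein-coding genes searched, which yields high correlations for any gene. The closest were Tpcn1 for Tlr1 (Pearson r = 0.995), Gdap2 for Tlr2 (r = 0.990), Mfn2 for Tlr4 (r = 0.991), Dck for Tlr9 (r = 0.993) and Csad for Cd180 (r = 0.978). Among the 10 genes themselves the highest were Tlr1 with Tlr13 (r = 0.938) and Tlr13 with Myd88 (r = 0.928), and the lowest was Tlr4 with Tlr7 (r = -0.940). The points share the library preparation and nested sorting gates.

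The pathway around the receptors was described with 63 other genes, of which 56 passed the filter. In GMPs 9 were called higher and 7 lower in CD62L-high than CD62L-neg cells, where 4.49% and 6.01% of all genes were, and in CMPs 16 higher and 6 lower, where 5.62% and 4.84% were. Of the 12 IRAK and TRAF signalling genes 0 were called in either cell type by edgeR, with 4 in GMPs and 5 in CMPs at an unadjusted p under 0.05, and 0 by DESeq2. With such shares over all genes, a count of 0 in 12 is near the background. Tab3, a subunit of the TAK1 kinase complex, passed the adjusted p in both but not the fold change, with log2 fold changes of -0.70 in GMPs (adjusted p = 0.02702) and -0.70 in CMPs (adjusted p = 0.02677). Without CD62L-neg CMP library 1 the pathway count in CMPs was 15 higher and 6 lower. The median log2 fold change over the 56 genes was 0.30 in GMPs and 0.12 in CMPs, beside -0.04 and 0.01 over all genes.

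Of 5 genes for the folding and trafficking of receptors, 3 were called higher in CD62L-high GMPs (Unc93b1, Lgmn and Slc15a4) and 3 in CD62L-high CMPs (Unc93b1, Lgmn and Cnpy3). The shares called higher over all genes were 4.49% in GMPs and 5.62% in CMPs. Unc93b1, which escorts the nucleic acid receptors to endosomes, was at 514, 405 and 422 CPM in CD62L-high GMPs, against 72.8, 61.0 and 77.7 CPM in CD62L-neg GMPs (log2 fold change 2.66 ± 0.21, adjusted p = 2.01e-09). In CMPs it was at 311, 238 and 276 CPM in CD62L-high cells, against 32.3, 22.5 and 15.8 CPM in CD62L-neg cells (3.54 ± 0.22, adjusted p = 5.508e-11). Unlike Tlr9, Unc93b1 was well measured in CD62L-neg cells. Lgmn, a protease that processes endosomal receptors, was higher in CD62L-high CMPs, with 5.38, 4.70 and 8.72 CPM against 0.121, 0 and 0.270 CPM in CD62L-neg CMPs, a ratio of pooled counts of 49.7 with a 95% interval of 16.8 to 243 (adjusted p = 0.0002663). In GMPs it was at least 20.1-fold higher in CD62L-high cells, since CD62L-neg GMPs had 0 counts (adjusted p = 0.0004111). The chaperone Hsp90b1 was not called by CD62L but was higher in CD62L-neg GMPs than in CD62L-neg CMPs (1.64 ± 0.29, adjusted p = 0.0001855).

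All 4 of the measured other receptors (Tlr3, Tlr5, Tlr8 and Tlr12, out of 5 listed) were called higher in CD62L-high CMPs, and 1 of 4, Tlr8, in CD62L-high GMPs. Over all genes 5.62% were called higher in CD62L-high CMPs and 4.49% in CD62L-high GMPs. Without CD62L-neg CMP library 1, which stood apart, the count in CMPs was 2 of 4. Tlr5, Tlr8 and Tlr12 are named although they lie under the 5 CPM set for naming, chosen after their values were seen. Tlr3, the receptor of double-stranded RNA, was at 1.90, 7.05 and 7.61 CPM in CD62L-high CMPs, against 0, 0.255 and 0.135 CPM in CD62L-neg CMPs, a ratio of pooled counts of 45.3 with a 95% interval of 15.3 to 221 (adjusted p = 0.009923). It was at 0 counts in all 3 bulk GMP libraries. Tlr8 was at 3.19, 2.002 and 2.75 CPM in CD62L-high GMPs, against 0, 0.0786 and 0 CPM in CD62L-neg GMPs, which held 1 count in all.

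Of the 5 TIR adaptors beside Myd88, 4 passed the filter, and 2 of them, Ticam2 and Pik3ap1, were called higher in CD62L-high CMPs (2.84 ± 0.27 and 1.79 ± 0.22) but 0 in CD62L-high GMPs. The shares called higher over all genes were 5.62% in CMPs and 4.49% in GMPs, so 0 of 4 in GMPs is near the background. The difference between the effects in GMPs and CMPs was -2.08 ± 0.35 for Ticam2 (adjusted p = 0.0003921) and -2.21 ± 0.30 for Pik3ap1 (adjusted p = 3.007e-05). Irf5, a transcription factor downstream of MYD88, was called higher in CD62L-high cells of both types, at 93.3, 58.7 and 55.5 CPM in CD62L-high GMPs, against 7.64, 5.74 and 3.69 CPM in CD62L-neg GMPs. Its log2 fold change was 3.60 ± 0.31 in GMPs (adjusted p = 8.089e-09) and 3.46 ± 0.33 in CMPs (adjusted p = 3.027e-08). In GMPs it also rose in the upper step, CD62L-high over CD62L-int (1.38 ± 0.28, adjusted p = 0.00849).

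Of the 8 listed negative regulators, 4 were called lower in CD62L-high GMPs (Il1rl1, Tnfaip3, Nfkbia and Irak3), 3 of these also in CD62L-high CMPs, and 0 higher in either. Over all genes 6.01% were called lower in CD62L-high GMPs and 4.84% in CD62L-high CMPs. Tnfaip3, which encodes the deubiquitinating enzyme A20, was at 47.9, 42.6 and 55.4 CPM in CD62L-high GMPs, against 338, 479 and 213 CPM in CD62L-neg GMPs (log2 fold change -2.82 ± 0.21, adjusted p = 8.275e-10), and fell in CMPs by 2.64 ± 0.21 (adjusted p = 1.691e-09). Bulk GMPs had 208, 230 and 212 CPM of Tnfaip3, against 44.1, 51.65 and 60.2 CPM in CD62L-int GMPs. Bulk CMPs had 459, 374 and 477 CPM of Tnfaip3, each above every CD62L-neg CMP library. Nfkbia, an inhibitor of NF-kB, fell by 1.59 ± 0.28 in GMPs and by 1.60 ± 0.28 in CMPs. Bulk GMPs had 158, 171.5 and 169 CPM of Nfkbia, against 52.5, 83.6 and 82.6 CPM in CD62L-int GMPs. Why bulk cells were this high was not tested. Irak3, an IRAK without kinase activity, was at 24.9, 32.6 and 29.3 CPM in CD62L-high GMPs, against 103, 104 and 104 CPM in CD62L-neg GMPs (-1.84 ± 0.17, adjusted p = 3.477e-08). Il1rl1 encodes the IL-33 receptor of basophils and mast cells and was also lower in both, by at least 490.0-fold in CD62L-high GMPs, which had 0 counts. The listed cytokine and chemokine targets of NF-kB were split, with Cxcl2 lower in CD62L-high GMPs (-3.87 ± 0.45) and CMPs (-2.57 ± 0.42) but Ccl3 higher in CD62L-high CMPs (3.14 ± 0.43).

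**Figure D5:**
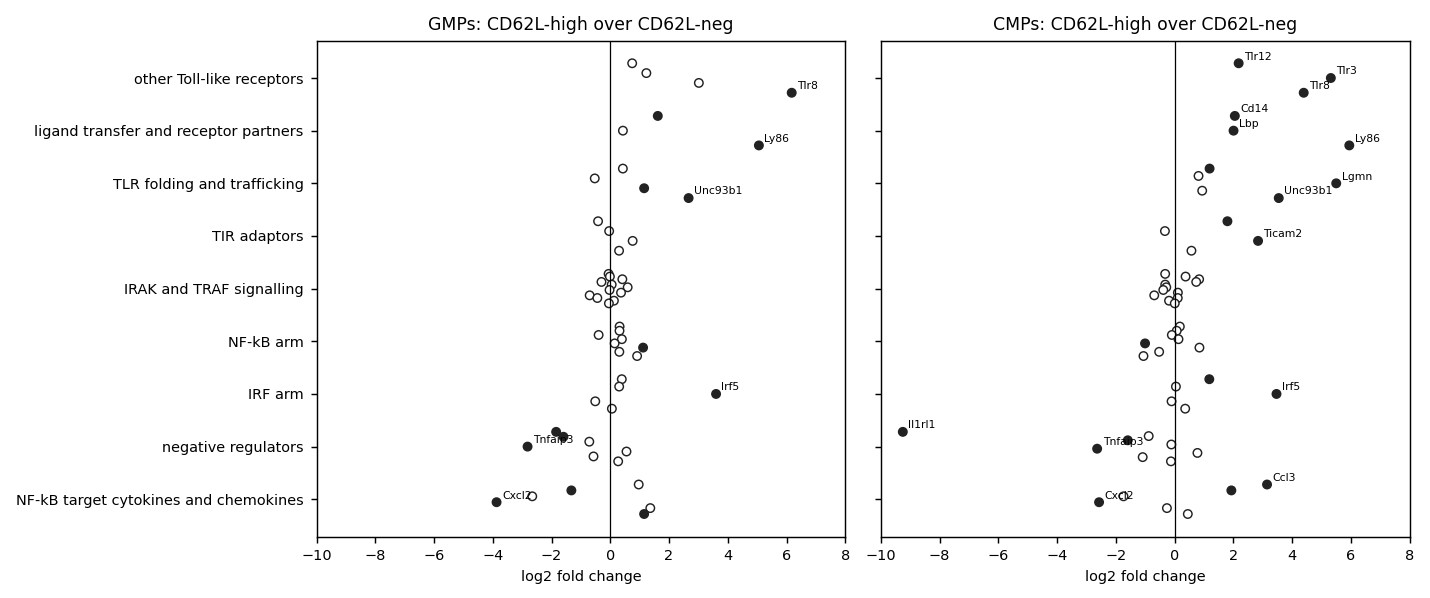
Log2 fold change of CD62L-high over CD62L-neg cells (horizontal axis) for the pathway genes past the filter, 1 row per list and 1 point per gene, in GMPs (left) and CMPs (right), with filled points for called genes. Genes with 0 counts in a population compared are left out, and called genes beyond 2 in either direction are named. Ly86, Unc93b1 and Irf5 lie to the right in both.

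Lbp and Cd14, which serve TLR4 in the transfer of lipopolysaccharide, were higher in GMPs than in CMPs. Lbp, which hands lipopolysaccharide to CD14, was at 78.0, 70.9 and 73.2 CPM in CD62L-neg GMPs, against 13.2, 6.51 and 6.76 CPM in CD62L-neg CMPs, and at 122, 94.4 and 82.4 CPM in CD62L-high GMPs, against 41.3, 32.8 and 32.6 CPM in CD62L-high CMPs. Neither pair overlapped, and the log2 fold change was 3.06 ± 0.21 in CD62L-neg cells (adjusted p = 1.876e-10), 1.49 ± 0.19 in CD62L-high cells (adjusted p = 7.297e-06) and 1.30 ± 0.20 in bulk cells (adjusted p = 3.951e-05). Cd14 was also called higher in GMPs in all 3 pairs, by 2.37 ± 0.51 in CD62L-neg cells, 1.94 ± 0.43 in CD62L-high cells and 2.46 ± 0.46 in bulk cells. Unlike Tlr4, Lbp was called higher in CD62L-high than CD62L-neg CMPs, by 4.01-fold (SE 0.21 on the log2 scale, adjusted p = 1.336e-07), and in GMPs the log2 fold change was 0.43 ± 0.19 (adjusted p = 0.1296). Of the 56 pathway genes, 10 were called higher and 2 lower in CD62L-neg GMPs, 2 higher and 2 lower in CD62L-high GMPs and 6 higher and 10 lower in bulk GMPs, each against the matching CMPs. Over all genes 6.49% were called higher and 6.11% lower in the first pair, 2.53% and 5.11% in the second and 4.19% and 7.3% in the third, so the counts in CD62L-high cells and the lower count in CD62L-neg cells were near or under the background.

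Markers of other cell types moved with the comparisons by CD62L and with those of GMPs over CMPs. Of 11 monocyte genes, 10 were called higher in CD62L-high GMPs and 9 in CD62L-high CMPs, and their summed level was 3500 to 3763 CPM in CD62L-high GMPs, against 186 to 212 CPM in CD62L-neg GMPs, and 2055 to 2512 CPM in CD62L-high CMPs, against 71.0 to 139 CPM in CD62L-neg CMPs. Of the dendritic cell genes 8 passed the filter, 2 of them called higher in CD62L-high GMPs and 7 in CD62L-high CMPs. The 10 listed summed to 260 to 476 CPM in CD62L-high CMPs, against 17.3 to 30.8 CPM in CD62L-neg CMPs, and to 17.5 to 71.0 CPM in CD62L-high GMPs, against 13.2 to 25.5 CPM in CD62L-neg GMPs, and Siglech was at 0 in all 4 GMP populations. The megakaryocyte list went the opposite way, with 0.572 to 0.964 CPM in CD62L-high GMPs, against 114 to 146 CPM in CD62L-neg GMPs, and 14.7 to 21.02 CPM in CD62L-high CMPs, against 686 to 803 CPM in CD62L-neg CMPs. The early neutrophil list, with 7 genes, split by cell type. Raised CD62L went with 5 upward calls and 0 downward among CMPs, each against the CD62L-neg fraction. Among GMPs the matching contrast gave 0 upward calls and 3 downward. Of the B cell genes, Ms4a1 was at 0 in all 7 populations, and the list summed to 5.98 to 18.6 CPM in the 21 libraries. Between GMPs and CMPs, the comparison in which Tlr4 was called, 7 of the 7 early neutrophil genes were called higher in CD62L-neg GMPs, 5 in CD62L-high GMPs and 7 in bulk GMPs. They summed to 24540 to 26530 CPM in CD62L-neg GMPs, against 896 to 1803 CPM in CD62L-neg CMPs, to 19720 to 25740 CPM in CD62L-high GMPs, against 7300 to 8489 CPM in CD62L-high CMPs, and to 20960 to 21950 CPM in bulk GMPs, against 4761 to 5410 CPM in bulk CMPs. Of the 8 dendritic cell genes past the filter, 1 was called lower in CD62L-neg GMPs, 6 in CD62L-high GMPs and 5 in bulk GMPs, each against the matching CMPs, and the 10 listed summed to 13.03 to 19.4 CPM in bulk GMPs, against 111 to 161 CPM in bulk CMPs. Of the 8 megakaryocyte genes, 8, 4 and 8 were called lower in CD62L-neg, CD62L-high and bulk GMPs, as were 8, 4 and 7 of the 8 erythroid genes. The part of these cell types in the levels of the 10 genes was not tested.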

How the data were processed

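Per the labels and the study's methods, RNA was extracted from sorted cells, reads were demultiplexed with bcl2fastq, trimmed with Trim Galore, aligned to mm10 with HISAT2 and counted per gene with HTSeq. Versions, annotation release and strand setting are not given in the sources used here, and the labels and the methods name different library kits. The authors deposited raw read counts, unscaled, for 47643 genes in 21 libraries, and the study set aside 1 bulk CMP sample without naming it in the sources used here, so all 3 were kept. Of the identifiers, 47224 (99.12%) matched the GENCODE M21 annotation, which gave symbols and exon lengths.

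All 21 libraries were fitted together in edgeR 4.0.16 (R 4.3.3) with TMM scaling, filterByExpr and the quasi-likelihood F test, with population as the only term. Benjamini-Hochberg adjustment ran over 14801 genes, and calls required a change of more than 2-fold beside an adjusted p below 0.05 (for the difference between effects, the adjusted p alone). SEs were derived from the log2 fold change and F. CPM used TMM-scaled library sizes, and CPM per kb the exon length. Against a group at 0 counts a fold was bounded with 3 pooled counts, and against 1 to 3 counts a ratio of pooled counts with a 95% exact interval was given. Intervals and floors cover counting error only. The script was tested on simulated counts. Alternatives were RLE scaling, DESeq2 1.42.0, no filter, a fit of the compared populations alone, exclusion of the 3 RNA gene models, a replicate block and leaving out single libraries. The members, gene lists and tests were chosen with earlier results of these data known. Pathway genes could be named if called and at 5 CPM or more in the higher population. They also had to be among the 4 largest changes of their list and direction. Not all genes that met this rule are named. Tlr5, Tlr8, Tlr12, Lgmn in GMPs and Tab3, which was not called, were named outside it. Values of some marker genes are not reported here.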

Additional observations from a re-analysis of the deposited data

Results flagged for a closer look

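The effect of CD62L on Cd180 differed between GMPs and CMPs by 2.90 ± 0.47 on the log2 scale (edgeR adjusted p = 0.0002149). The contrasts share their names, but the GMP fractions were narrower tails of CD62L than the CMP fractions. The part of this unlike cut in the difference was not tested. Cd180 was higher in each CD62L-high GMP library than in each CD62L-neg GMP library, and the CMP fractions overlapped. The range over the left-out libraries was 2.60 to 3.04, and the adjusted p over all alternatives ranged from 5.83e-09 to 0.00119.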

How the results depend on the processing

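Of the counts of the 10 genes called, those by CD62L were kept within 1.5 times by RLE scaling, DESeq2, no filter, a fit of the compared populations alone and exclusion of the 3 RNA gene models. In CMPs the fit of the compared populations alone gave 3 higher, without Tlr13, against 4 as reported. Other comparisons moved: bulk GMPs over bulk CMPs had 1 higher and 0 lower with the compared populations alone (2 and 1 as reported, 3 and 1 with DESeq2), and CD62L-high GMPs over CD62L-high CMPs had 2 higher with that fit or DESeq2 (1 as reported) and 1 lower with no filter or with that fit (0 as reported). Over the left-out libraries the counts ran from 1 to 3 higher and 0 to 1 lower in bulk cells, 1 to 3 higher in CD62L-neg cells, 1 to 2 higher in CD62L-high cells and 0 to 1 lower for the difference between effects. The libraries behind these were bulk CMP 2, bulk GMP 2 and 3, CD62L-neg CMP 1 and CD62L-neg GMP 3. Tlr1 was called higher in bulk GMPs without bulk CMP library 2 (2.84, adjusted p = 0.03242) and with DESeq2 (2.11, adjusted p = 0.03555). Tlr1 was also the added gene called higher in CD62L-high GMPs over CD62L-high CMPs. That held with DESeq2, with the compared populations alone and without bulk CMP library 2 (1.95, edgeR adjusted p = 0.03586). With no filter the 1 gene called lower in bulk GMPs was Tlr9 in place of Cd180. The cause was not tested.

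The sign turned over the left-out libraries for Tlr7 in CD62L-neg GMPs over CD62L-neg CMPs, which ran from -2.65 to 5.45 (without CD62L-neg CMP library 1). Without CD62L-neg GMP library 1 both CD62L-neg groups were at 0 counts of Tlr13, so its values there are no estimates: over the left-out libraries it ran from 0.00 to 5.77 between these groups, and from -4.72 to 1.05 in the difference between effects, the last with an SE of 1647. None of these was called with all libraries. Tlr13, Tlr7 and Ly96 have few counts, so their values are limited by depth.

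Over all genes, CD62L-high over CD62L-int GMPs had 49 higher and 131 lower as reported, 88 and 217 with DESeq2, 94 and 230 with no filter, and 30 and 41 with the compared populations alone. Bulk GMPs over bulk CMPs had 402 higher with the compared populations alone (620 as reported, 526 to 757 over the left-out libraries), and the difference between effects had 544 higher with DESeq2 and 604 higher and 1138 lower without bulk CMP library 2 (341 and 747 as reported).

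Libraries with the same replicate number did not deviate together (correlations from -0.0746 to 0.057), so no pairing was seen and none was used. The deviations include counting noise, so this check cannot exclude a shared origin of such libraries. With the replicate number as a block, 4 genes were called higher in CD62L-high CMPs and 4 in CD62L-high GMPs, and over all genes 823 and 649 were called higher, against 832 and 664 without it. The block moved no count of the 10 genes.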
